A study of Mus musculus with 2 samples.

Results

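The genes described here encode surface proteins of plasma cells and the receptors and ligands of the BAFF/APRIL system, measured in hybridoma cells exposed to the bursal peptide BSP-II. They are the syndecan Sdc1, the receptors Tnfrsf17, Tnfrsf13b and Tnfrsf13c, the ligands Tnfsf13 and Tnfsf13b, and the surface proteins Cd38, Cd27 and Slamf7. A probe belonged to a gene when its accession matched a RefSeq transcript of that gene, and all such probes were kept. In this way 10 of the 41163 gene probes represented 8 of the 9 genes, out of 17302 genes named on the arrays; no probe was matched to Tnfsf13, which was not analysed here. Cells of the mouse hybridoma labelled 1H5F9 (given under strain) were cultured for 4 h with 5 µg/ml BSP-II, or with 0 µg/ml in the same serum-containing medium. A hybridoma is an antibody-secreting line derived from the fusion of a B cell and a myeloma cell, and BSP-II is a peptide from the bursa of Fabricius, the organ of B cell development in birds. Each dose was represented by 1 single-colour (Cy3) array, so no difference below has a replicate check, no p-value was computed, and "higher" and "lower" describe these 2 arrays. The submitters describe independent experiments on separate cells, but both arrays analysed here are numbered replicate 1.

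Plasma cells are terminally differentiated B cells that carry syndecan-1 (CD138) at high density and secrete antibody. Their survival, and that of the B cells they come from, depends on the TNF-family ligands BAFF and APRIL, which act through 3 receptors with different ligand preferences: BAFF-R binds BAFF, whereas TACI and BCMA bind both and BCMA prefers APRIL. As B cells become plasma cells, BAFF-R is usually lost and BCMA is gained, and signals from these receptors reach NF-kB through TRAF adaptors and sustain anti-apoptotic proteins such as Mcl1.

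None of the 7 genes well above background on both arrays differed between them by as much as 1.5-fold. For Cd27 no fold could be given, and Tnfsf13 had no matched probe. Sdc1, the 3 receptors and Slamf7 gave clear signals on both arrays, Tnfsf13b and Cd38 gave low ones, and Cd27 lay at the limit of detection. The largest differences were those of Cd38, at −0.36 on the log2 scale by its brighter probe, and of Tnfrsf17, at −0.25. Of the 10 member probes 9 were well above background on both arrays, as were 59.4% of all probes, and they stood for 7 of the 8 genes, a state reached by 74.3% of all genes. Against 0 of these 9 probes, 7.35% of all 24455 such probes were at least 1.5-fold different, 1.44% higher and 5.91% lower with BSP-II. By the brightest probe of each gene the count was 0 of 7, against 6.05% of all genes. At these backgrounds a count of 0 among so few probes does not set the members apart.

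Signals are given as Agilent's processed signal, the brightness of a spot after background subtraction, in arbitrary units. The BSP-II array was the brighter of the pair, with a 75th percentile of 356 against 309 on the untreated array, a ratio of 1.15. Log2 differences are BSP-II minus untreated after each array was scaled to its own 75th percentile. A gene with nearly equal processed signals on both arrays therefore has a slightly negative difference. After each difference stands Agilent's own error for the spots, carried to the log2 scale, which leaves out variation between cultures, RNA samples and hybridisations. A probe's brightness depends on its sequence as well as on its transcript, so transcript levels are compared only between arrays for one probe. Where signals are ranked or summed across genes, they describe probe brightness and not relative transcript levels. Detected means well above background by Agilent's call, here on both arrays unless 1 is named. Of all gene probes, 27272 were well above background on the BSP-II array and 24674 on the untreated array. The lowest signal called well above background was 7.66 on the BSP-II array and 11.8 on the untreated array, and no gene spot was saturated.

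**Figure D1:**
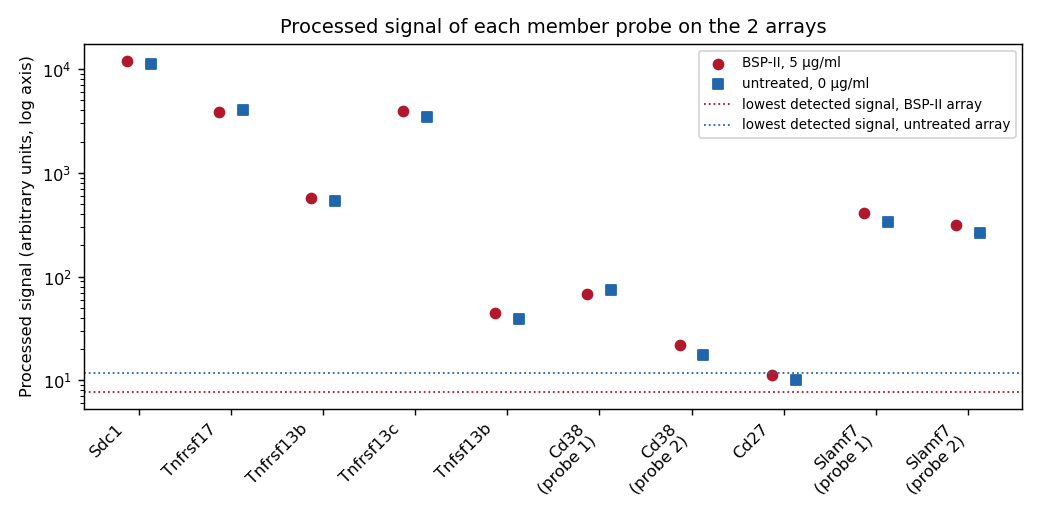
Processed signal (arbitrary units, log axis) of each of the 10 member probes on the BSP-II array (red circles) and the untreated array (blue squares), 1 spot per probe and array; dotted lines mark the lowest signal called well above background on each array. The 2 values of every probe lie close together, and only Cd27, at 11.1 and 10.1, falls to the dotted lines.

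Transcript of the surface marker of plasma cells was detected in the hybridoma, and the protein was not measured. Sdc1, which encodes the heparan sulfate proteoglycan syndecan-1 (CD138), had a processed signal of 12122.5 on the BSP-II array and 11218.8 on the untreated array. The scaled difference was −0.09 ± 0.20, and 80.7% of all tested probes lay at least as far from the all-probe median of −0.04. It ranged from −0.09 to 0.03 over 7 other ways of processing the signal. Of the 7 markers of plasma cells in the list used here, which also holds Tnfrsf17, Prdm1, Irf4, Xbp1, Mzb1 and Jchain, 7 were well above background on both arrays. Their summed signal, unscaled, was 250974 on the BSP-II array and 236132 on the untreated array, and Jchain and Mzb1 made up 86.1% of it with BSP-II and 86.5% without. After scaling, the median difference of the 7 markers was −0.16, with 5 of them below the median of all genes.

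All 3 receptors of the BAFF/APRIL system were detected on both arrays. Tnfrsf17, which encodes BCMA, had a signal of 3877 with BSP-II and 4003 without, and was the only receptor whose unscaled signal was lower on the BSP-II array. Its difference of −0.25 ± 0.20, a 1.19-fold lower level with BSP-II, exceeded 1 spot error but not 2. Among the brightest 20% of probes, to which it belongs, the middle 95% of differences ran from −0.45 to 0.27, and Tnfrsf17 lay inside. It stayed below 0 under 7 other ways of processing, at −0.23 to −0.11. The spot lies in row 517 near the left edge of the array, where 161 detected spots within 10 rows and columns had a median difference of −0.10. Measured against those neighbours, Tnfrsf17 was at −0.16.

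The other two receptors differed less. Tnfrsf13b, which encodes TACI, had a signal of 576 on the BSP-II array and 534 on the untreated array, with a difference of −0.10 ± 0.20. Tnfrsf13c, which encodes BAFF-R, the receptor through which BAFF maintains mature B cells, had a signal of 3926 with BSP-II and 3483 without. Its difference was −0.03 ± 0.20, and 97.7% of all tested probes lay at least as far from the all-probe median. Both changed sign with the scaling, Tnfrsf13b between −0.11 and 0.03 and Tnfrsf13c between −0.02 and 0.09 under other processing, so no direction can be given for either. BAFF-R transcript was thus detected beside BCMA in this line, with and without the peptide.

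Of the ligands, only Tnfsf13b could be read. Tnfsf13b, which encodes BAFF and is made mostly by myeloid and stromal cells, had a signal of 44.3 with BSP-II and 39.2 without, above the lowest detected signal on each array. The difference was −0.03 ± 0.23, and it ranged from −0.07 to 0.09 under other processing. For APRIL, the product of Tnfsf13, the nearest measurement was that of Tnfsfm13, a gene chosen after its values were seen. Tnfsfm13 (Twe-pril) joins the neighbouring genes Tnfsf12 and Tnfsf13 in one read-through transcript, and the exons covered by the probe are not stated in any source used here. The Tnfsfm13 probe had a signal of 137 with BSP-II and 92.7 without, a difference of 0.36 ± 0.21, or 1.29-fold. That value stayed above 0 under 7 other ways of processing, from 0.20 to 0.49, and 16.1% of all tested probes lay at least as far from the median. Tnfsf12 itself, which encodes TWEAK, was not well above background on either array.

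Cd38 gave the largest difference, and its probes disagreed. Cd38 encodes an ectoenzyme that turns NAD into ADP-ribose and cyclic ADP-ribose and, in the mouse, is carried by mature B cells. The brighter probe had a signal of 67.1 on the BSP-II array and 74.5 on the untreated array, a difference of −0.36 ± 0.22 (1.28-fold lower), which 24.1% of all tested probes equalled or exceeded in distance from the median. The dimmer probe had a signal of 22.0 with BSP-II and 17.5 without, a difference of 0.12 ± 0.31. The gap between them was 0.48, whereas the 3189 genes with exactly 2 detected probes had a median gap of 0.13, and 11.2% of them had a gap at least as large. The brighter probe kept its sign under 7 other ways of processing but was nearer 0 in each, at −0.31 to −0.23. The dimmer one ranged from −0.22 to 0.33, and averaging both gave −0.12.

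Slamf7 was the one gene read by 2 clear and concordant probes. It encodes a SLAM-family receptor (CS1) that is abundant on human plasma cells and myeloma cells. The brighter probe had a signal of 409 with BSP-II and 335 without, and the other had 312.5 with BSP-II and 261 without. Their differences were 0.08 ± 0.20 and 0.05 ± 0.20, a gap of 0.03, and 86.7% of genes with 2 detected probes had a gap at least as large. After 75th percentile scaling Slamf7 was the only member gene above 0 by its brightest probe. With median scaling and in the value table only 2 of 7 member genes were below 0. Both Slamf7 probes stayed above 0 under 7 other ways of processing, from 0.06 to 0.21. With 75th percentile scaling both differences were smaller than the spot error. The brighter probe barely exceeded its error of 0.204 with median scaling and in the value table, at 0.205 in each.

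Cd27, a TNF-receptor family member of memory B cells, plasma cells and T cells in humans, was barely measurable. Its signal was 11.1 on the BSP-II array and 10.1 on the untreated array, and it was called well above background on the BSP-II array alone. Such a call was shared by 6.84% of all probes and goes with the lower detection limit of that array. Because the untreated limit of 11.8 exceeds the BSP-II signal, no fold can be given. The gene for its ligand, Cd70, was not well above background on either array, with signals of 4.51 with BSP-II and 4.74 without.

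**Figure D2:**
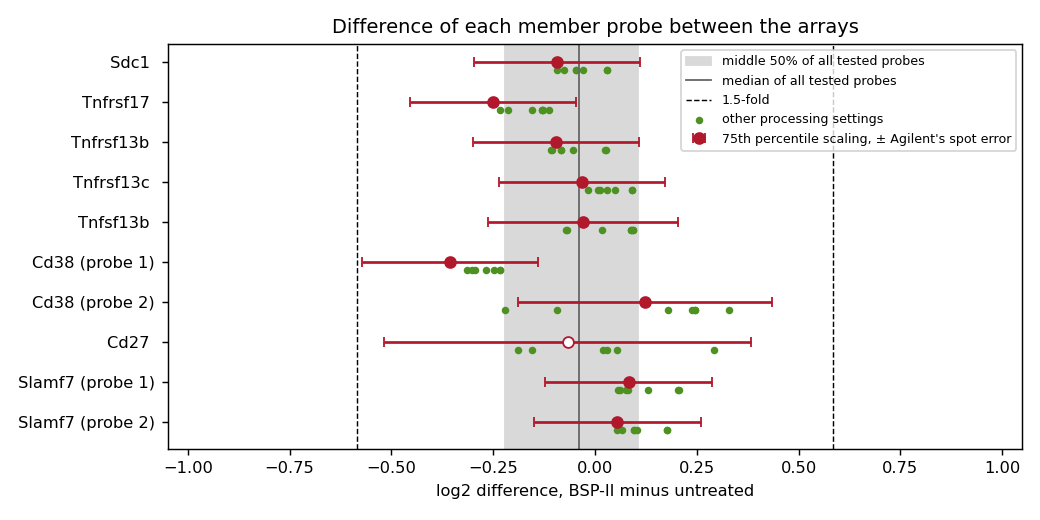
Log2 difference (BSP-II minus untreated) of each member probe after 75th percentile scaling (red, with Agilent's spot error as bars; the open circle is Cd27, not well above background on the untreated array) and under up to 7 other ways of processing (green), with the middle 50% of all tested probes in grey and dashed lines at 1.5-fold. All red points lie between −0.36 and 0.12, and 6 of the 9 detected on both arrays fall in the grey band.

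As a group, the 7 genes detected on both arrays had a median difference of −0.09, from −0.36 to 0.08. Of these genes 6 were below 0, as were 55.3% of all genes. That count depended on the scaling, and was 2 of 7 with median scaling and in the value table. The median of the members also changed sign with the scaling. It was −0.03 with quantile normalization and −0.05 with loess, but 0.03 with scaling to array medians and 0.03 in the authors' value table. Those last settings moved the median of all genes from −0.03 to 0.10 (12859 genes, or 12387 in the value table), and the share of 1.5-fold calls that were higher from 19.5% to 44.8% (median scaling) and 55.3% (value table). Relative to the median of all genes, the members were lower by little: −0.07 after 75th percentile scaling, and −0.07 to −0.03 under 10 alternatives. Of the 9 probes, 2 differed by more than 1 spot error and 0 by more than 2.

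The genes through which the receptors act were described by lists of companions. At the 1.5-fold size, 1.21% of all 12859 genes were higher with BSP-II and 4.84% lower, and the median of all was −0.03. Of 21 detected genes of BAFF/APRIL signal transduction, 0 were higher and 1 was lower, with a median of 0.00. The one was the kinase Mapk8 (JNK1), at −1.01 with low signals of 15.7 with BSP-II and 27.4 without. The adaptor Traf2 was at −0.31 and the kinases Mtor and Syk at 0.31 and −0.21. The brightest genes of that list, the NF-kB inhibitor Nfkbia and the kinase Akt1, were at 0.10 and −0.05. Of 10 detected survival genes, 0 passed in either direction, with a median of 0.00. Mcl1, on which plasma cell survival through BCMA depends in the mouse, had a signal of 69389 with BSP-II and 61844 without at its brighter probe, and differences of −0.04 and −0.10 at its 2 probes. The apoptosis inhibitor Cflar was at −0.26, with −0.50 to −0.13 at its other probes, the BH3-only gene Bbc3 at 0.21, and Bcl2l1 at 0.15, with −0.24 and −0.28 at its dimmer probes.

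Plasma cell transcription factors and secretory genes (17 detected) also had 0 genes past 1.5-fold and a median of −0.09. Irf4, which drives plasma cell differentiation, was at −0.25, and the secretory genes Derl3 and Jchain were at −0.36 and −0.17. Ikzf1 was at 0.35 and Ikzf3, at a low signal, at −0.38. Mature B cell genes (15 detected) had a median of −0.11, with Ms4a1 (CD20) at −0.41, Cxcr5 at −0.31 and 0 past 1.5-fold. Pax5, the B cell factor that plasma cells silence, was not well above background on either array. Relative to the median of all genes both of these lists stayed below 0 under 10 alternatives. The plasma cell list ranged from −0.09 to −0.01 and the mature B cell list from −0.20 to −0.05. Other surface genes of plasma cells (18 detected) had a median of −0.06. In that list 2 were lower: Ly6c1 at −0.75 and the adhesion molecule Ncam1 at −0.77, whose other probes detected on both arrays gave −0.93 to 0.03.

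The gene families of the members held several genes past 1.5-fold, a size at which 1.21% of all genes were higher and 4.84% lower. With so few genes per family and 1 array per dose, nothing is concluded from these counts. Among 9 detected TNF-family ligands, 1 was higher, Tnfsf15 at 1.37 with signals of 47.8 with BSP-II and 16.1 without; Ltb was at 0.53 and Tnfsf8 at −0.38. Among 18 detected TNF receptors, 3 were higher (Ltbr at 0.93, Fas at 0.69 and Tnfrsf19 at 0.59) and Tnfrsf8 was lower at −0.73. The median of these receptors was 0.10. Relative to the median of all genes it was 0.03 to 0.15 under 10 alternatives. Of 7 detected genes of the SLAM family and its adaptors, Slamf1 was lower at −0.78, with low signals of 43.8 with BSP-II and 65.5 without. At such signals the middle 95% of all probes spanned −0.86 to 0.57. Slamf6 was at −0.31 (other probe −0.40) and Cd48 at −0.15 (other probe −0.20), and the median of the list was −0.15. Among 19 detected genes of syndecans, glypicans and heparan sulfate synthesis, Sdc3 was at −0.76 but 0.22 by its other probe, and the exostosin-like gene Extl3 was at 0.32 but −0.63 by its dimmer probe. Of 13 detected genes of NAD metabolism 0 passed, and Bst1, the other ADP-ribosyl cyclase gene, was at −0.34. Of 8 detected genes listed for the processing of APRIL, BAFF or their receptors, 0 passed. That list also holds Siva1, at 0.06, which does not process them. The protease gene Furin, whose product cleaves these ligands, was at 0.21, and the gamma-secretase subunit gene Aph1a at 0.46 (other probe 0.23).

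**Figure D3:**
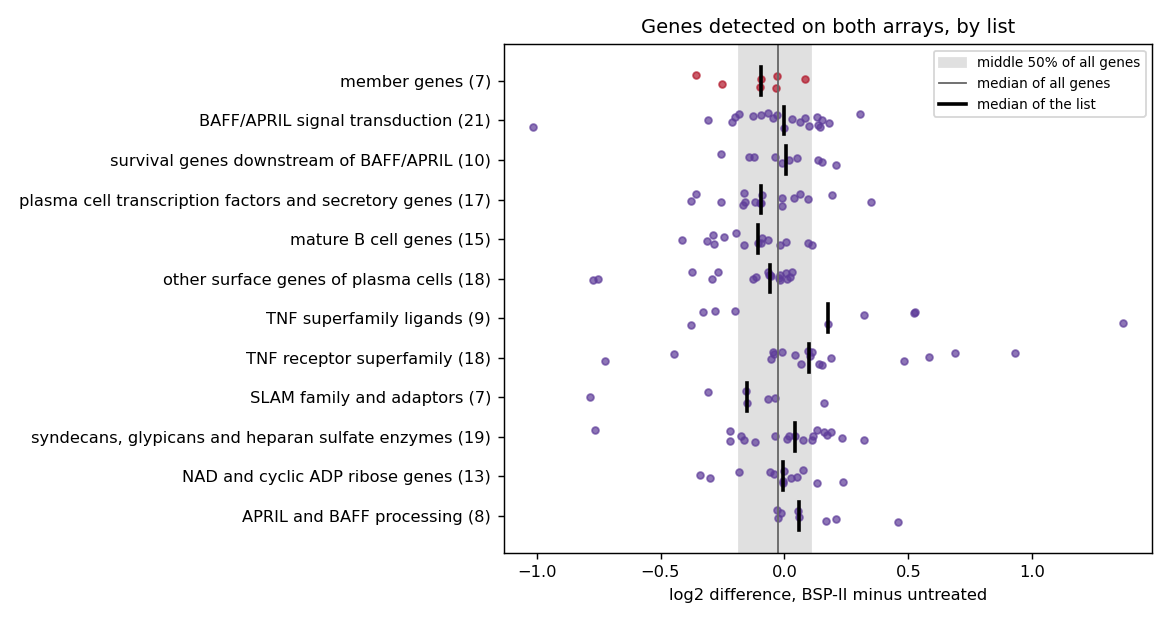
Log2 difference (BSP-II minus untreated) of genes detected on both arrays, 1 point per gene by its brightest detected probe, for the member genes (red) and each companion list (purple, number of genes in brackets), with black bars at list medians and the middle 50% of all genes in grey. The member genes lie between −0.36 and 0.08, and the genes of TNF-family ligands and receptors lie between −0.73 and 1.37.

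Markers of other cell types were checked on the same arrays. Of 7 mature B cell markers, 6 were well above background on both arrays. Among markers with a matched probe, 5 of 7 for T cells and 4 of 7 for macrophages reached this state. So did 2 of 4 for dendritic cells and 3 of 5 for fibroblasts. These lists named 8, 8, 5 and 5 genes, and those without a probe were not measured. Over all genes named on the arrays the share was 74.3%. The summed signal of the detected T cell markers was 363 with BSP-II and 398 without, and that of macrophage markers 199 with BSP-II and 151 without. The macrophage sum rests on 1 probe of Csf1r, at 104 with BSP-II and 48.4 without (0.90), whereas another Csf1r probe gave 50.2 with BSP-II and 73.5 without (−0.75); without Csf1r the sum was 94.7 with BSP-II and 102 without. For dendritic cell markers the sum was 588 with BSP-II and 733 without, and for fibroblast markers 67.0 with BSP-II and 70.0 without. The dendritic sum is mostly 1 probe of Xcr1, at 473 with BSP-II and 639 without, whose other probe was not well above background on either array. All these sums are unscaled, and the BSP-II array was the brighter of the pair. Cd8a, Lyz2, Mertk, Itgax, Siglech, Pdgfra and Dcn were not well above background on either array. Whether such cells contributed to the low signals of Tnfsf13b, Cd38 or Cd27 was not tested. In RNA from whole cultures, fewer cells that express a gene and less of its RNA per cell cannot be told apart.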

How the data were processed

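Total RNA labelled with Cy3 was hybridised to Agilent whole-genome arrays on the same slide, 1 per dose, and read, per the submitters' processing notes, with Agilent Feature Extraction 10.5.1.1. The intensity values deposited are, per the file headers, a background-subtracted processed signal with its error, and the median brightness of spot and local background. The deposited flags (unit other) mark outlier, saturated and detected spots. The deposited value table is on a log2 scale, lists 23296 probes and matches log2 of the processed signal after a shift of the whole array (−4.94 with BSP-II, −4.85 without) to within 0.0001 for 99.8% of them; its column medians are 2.99 with BSP-II and 2.88 without. Its log base and direction were found from the values; the origin of the shift is not stated in any source used here.

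Control spots and 189 outlier spots were removed, and repeat spots of a probe were averaged. From the log2 signals the 75th percentile of the array was subtracted. Unversioned accessions were looked up in a RefSeq table (GRCm38.p6) for gene names only, the grid being on mm9; 25091 of 41163 probes (61.0%) matched 1 gene. A gene is represented by its brightest probe detected (well above background) on both arrays. Named genes are all members and, from each companion list, up to 4 detected genes with the largest difference and the brightest 2; not every gene so chosen is reported here. The members and lists were chosen with earlier results of these data known. The steps were tested on simulated data. With 1 array per group there is no test, and the number of arrays limits the precision. Alternatives were median, quantile and loess (fraction 0.3) scaling, the value table, normexp (limma 3.58.1, offset 50) on the median signal, no background subtraction, differences taken against spots within 10 rows and columns, other filters on dim probes, the median of a gene's probes, and other size thresholds. The planned normexp on the mean signal was run on the median signal, the one used here. Python 3.11.15 with numpy 2.4.6, pandas 2.3.3 and statsmodels 0.14.6 was used.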

Additional observations from a re-analysis of the deposited data

How the results depend on the processing

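No paired analysis was possible because each group is 1 array. The count of 0 member probes at least 1.5-fold different stayed 0 under 10 alternatives and became 1, the brighter Cd38 probe, at the lowest threshold tried, a log2 difference of 0.32, where 24.0% of all probes passed. The median of TNF-family ligands, 0.17, was −0.13 with no filter on dim probes, a setting that adds genes near background. It was also below 0 with normexp (−0.07), without background subtraction (−0.05) and when probes only had to be positive and significant on both arrays (−0.03). Relative to the median of all genes its sign changed under 4 of 10 alternatives, so no direction can be given for these ligands. An alternative was counted as a move when it shifted a difference by more than Agilent's spot error. By that measure 2 of 125 values of single probes or genes moved: the dimmer Cd38 probe to −0.22 with normexp, and Cd38 to −0.12 when its probes were combined. That count is no measure of robustness. The values of a gene mostly repeat those of its brightest probe. Median scaling shifted every probe by the same amount, smaller than the spot error of any member, so it could not count as a move. Every value of a member rests on 1 spot per probe and array. At the signals of Tnfsf13b and the brighter Cd38 probe the middle 95% of all probes spanned −0.86 to 0.57, so only differences beyond that range would stand out.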

Other observations

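The genes beside the members on the chromosomes, taken from gene order in the RefSeq table and described after their values were seen, differed by varying amounts. Usp22, next to Tnfrsf13b, was at 0.44, with signals of 135 with BSP-II and 86.5 without. Bst1, the ADP-ribosyl cyclase gene next to Cd38, had a signal of 278 with BSP-II and 306 without and a difference of −0.34 ± 0.20. The brighter Cd38 probe was at −0.36 but the dimmer one at 0.12. Of all tested probes, 25.7% lay at least as far from the median as Bst1. Bst1 stayed below 0 under 7 other ways of processing, from −0.34 to −0.22. Ly9 and Cd48, SLAM-family genes on either side of Slamf7, were at −0.15 and −0.15 (other Cd48 probe −0.20), whereas Slamf7 was at 0.08 and 0.05; each of these values is within 1 spot error of 0. Ltbr, the second gene from Cd27 and a receptor of lymphotoxin, had a signal of 172 with BSP-II and 78.2 without, a difference of 0.93 from a single probe.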
